A study of Oryza sativa with 35 samples.

Results

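Node II was compared with node I of the same rice stem. Both were chosen by their sample titles, 3 arrays each, which are 6 of the 35 arrays of the series. The plants were Oryza sativa of the cultivar Nipponbare, grown in soil in a greenhouse and taken at heading. Neither node had a treatment or a mutation, so node position is the one difference the labels give. Total RNA was labelled and hybridized to a 1-colour Affymetrix rice array, where 1 or more probe sets report each transcript.

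A node is the joint at which a leaf meets the rice stem. Node I is the uppermost and carries the flag leaf, and node II lies below it and carries the next leaf. Grass nodes hold enlarged vascular bundles in which minerals are passed from the bundles of the leaf to those that lead to the panicle. Each node also lies beside an axillary bud and beneath the intercalary meristem, a zone of dividing cells that lengthens the internode above it. In bulk tissue such as this, fewer cells of a type and less RNA per cell cannot be told apart.

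All levels below are log2 of the array signal after quantile normalization, and each difference is node II minus node I in log2 ± SE from the fit. Repeats are named biological replicates in the labels, which do not mention separate plants, so p-values measure the spread among arrays only. That spread was estimated within all 11 replicated organ groups, the nodes included. Tests covered 38673 of the 57258 probe sets for rice, those with signal on enough arrays. Before quantile normalization the array medians were 5.65 to 5.82 in node I and 5.88 to 6.09 in node II, so the ranges did not overlap. The deposited signals behind these medians had already been scaled to a common trimmed mean. Signals below 1 numbered 580 to 874 on the node I arrays and 306 to 511 on those of node II. The log2 ratio of 3' to 5' actin control signal, a measure of RNA quality, was 2.73 to 2.83 in node I. It was 2.35 to 3.13 in node II. Over the series it ran from 1.12 in the flower to 3.25 on 1 of the 2 arrays of the flag sheath base, the other being at 1.53. The part of this ratio in the differences between organs was not tested. Across the tested probe sets, arrays of the same node correlated at r = 0.933 to 0.9465 and arrays of different nodes at r = 0.9252 to 0.9389. These ranges overlap, and probe sets are not independent replicates.

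Of the 7 matched transporter genes known from nodes, 5 had means in both nodes above those of the other 9 organs. The exceptions were VIT2, at 13.14 in node II against 13.43 at the top of the flag sheath, and YSL16, at 10.58 in node I against 10.59 at the base of the flag blade. LSI6, a silicon channel that in rice nodes moves silicon out of the leaf bundles, was at 14.81, 14.81 and 14.86 in node I and at 14.93, 14.52 and 14.46 in node II. Its mean in the brightest other organ, the flag sheath base, was 14.08. LSI2, a silicon exporter, was at 12.42, 11.61 and 13.27 in node I and at 13.14, 12.33 and 11.43 in node II, against 4.04 in the brightest other organ. WOX11, a homeobox gene that drives crown root growth, averaged 10.70 in node I and 10.20 in node II, and no more than 5.23 elsewhere.

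Node II differed from node I by few calls. A probe set was called where the Benjamini-Hochberg adjusted p of limma over all 38673 was under 0.05 and the difference was at least 2-fold. By this rule 28 probe sets were higher in node II (0.0724% of those tested) and 48 were lower (0.124%). At an unadjusted p under 0.05 the counts were 1460 higher (3.78%) and 1920 lower (4.96%). All 3 node II arrays lay above all 3 node I arrays for 3558 probe sets (9.2%) and below them for 3947 (10.2%). Of the called probe sets, 28 of the 28 higher and 47 of the 48 lower had groups that did not overlap.

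The split between higher and lower calls moved with the scaling of the arrays. It was 49 higher and 34 lower on the deposited scale, 39 and 96 with array medians set equal, and 28 and 31 with the hybridization controls set equal. With array medians set equal the median difference of all tested probe sets was -0.18, against -0.01 in the quantile-normalized fit. With the 6 node arrays fitted alone, limma called 0 in either direction, while 4342 probe sets had an unadjusted p under 0.05. Leaving out 1 array at a time kept 4 of the 28 and 9 of the 48 called in every case. The calls below therefore rest on a spread borrowed from 11 groups of organs.

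The called probe sets named 17 genes higher in node II and 33 lower. A gene name beyond a locus identifier stood for 3 of the higher, RPA2A, KIN14R and Cht11, and for 7 of the lower, MADS34, GH3.11, RBM8, RIBA3, RCABP69, ERH1 and GDCSH. A further 11 higher and 14 lower probe sets have no gene in the annotation used. ERH1 and GDCSH, and LOC4351693 described below, fell outside the 15 largest changes and were named after their values were seen.

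**Figure D1:**
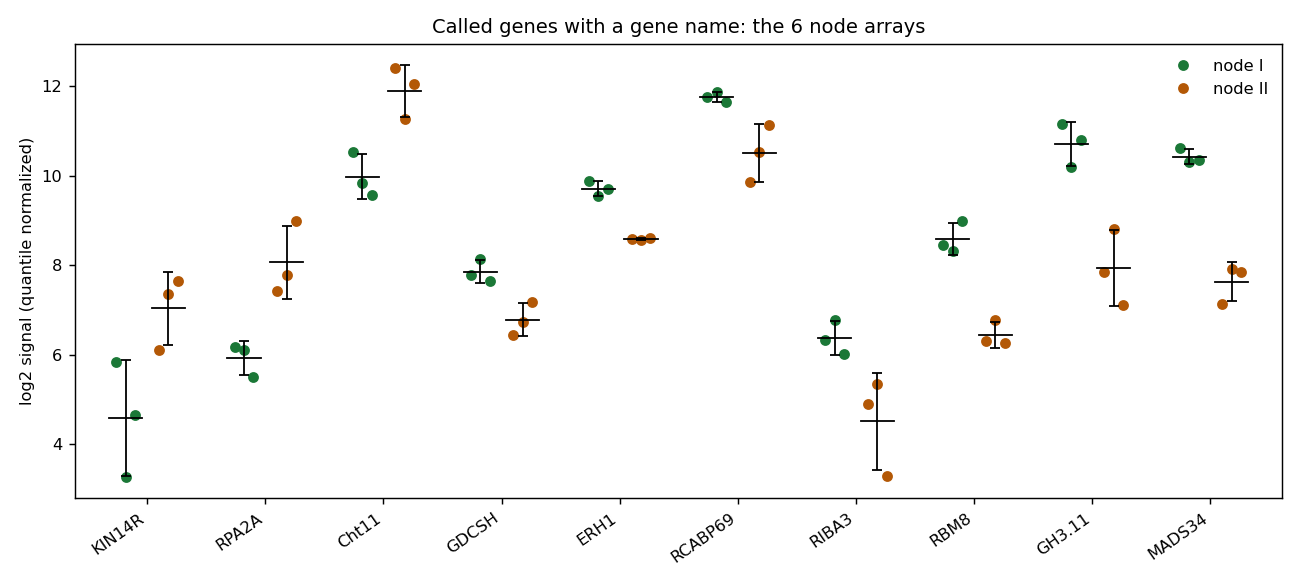
Log2 signal, quantile normalized, of the 10 called genes with a gene name in the 6 node arrays. Points are arrays (node I green, node II orange), horizontal lines are means and bars are SD (n = 3 per node). Cht11, RPA2A and KIN14R lie higher in node II and the other 7 lower, and in none of the 10 do the nodes overlap.

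Of the genes of DNA replication and cell division, RPA2A and KIN14R were called higher in node II and none was called lower. Replication begins when the MCM helicase is loaded onto origins by the ORC proteins and opens the DNA. The single strands are then covered by replication protein A (RPA), and PCNA holds the polymerase on its template. B-type cyclins with B-type CDKs drive the later entry into mitosis, and kinesins move along the spindle and the phragmoplast that builds the new wall.

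RPA2A, the middle subunit of replication protein A, was at 6.18, 6.11 and 5.50 in node I and at 7.42, 7.79 and 8.99 in node II. Every node II array was above every node I array, by 2.14 ± 0.42 (4.40-fold; limma adjusted p = 0.0266). Among the organs its level in node II (8.07) was second to that of the flag sheath base (8.41), while node I (5.93) ranked 9 of 11. The call of RPA2A was lost without node I replicate 1 (adjusted p = 0.0662) or 3 (0.129) and without node II replicate 2 (0.0583) or 3 (0.128), with differences of 1.68 to 2.46 over the 6 omissions.

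KIN14R, a kinesin of the kinesin-14 family, was at 5.84, 3.26 and 4.66 in node I and at 6.11, 7.36 and 7.65 in node II. The nodes did not overlap, though the gap between their nearest arrays was small, and the difference was 2.46 ± 0.52 (5.50-fold; limma adjusted p = 0.047). The call of KIN14R was lost without node I replicate 2 (adjusted p = 0.169) or 3 (0.126) and without node II replicate 2 (0.175) or 3 (0.173). It was also lost with no filter on dim probe sets (0.0801) and without probe sets open to cross-hybridization (0.0517), and the difference was 1.81 with 16 added to the signals.

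None of the 8 measured A- and B-type cyclins and B-type CDKs was called. Even so, 6 of the 8 had an unadjusted p under 0.05 with node II higher, against 4% of the 17094 genes tested, and in 7 of the 8 all node II arrays were above all node I arrays, against 12.1%. The median difference of the list was 1.78, beside -0.00 over all genes. CYCB2;1 was at 1.53, 4.87 and 5.84 in node I and at 6.96, 7.76 and 8.04 in node II. CYCB1-1 was even across node I (5.50, 5.54 and 5.56) and was at 7.43, 7.83 and 9.05 in node II. In both genes the arrays of the nodes were apart, and the differences were 3.51 ± 1.01 for CYCB2;1 (limma adjusted p = 0.197) and 2.57 ± 0.75 for CYCB1-1 (0.205).

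CYCB1-3, a further B-type cyclin, was at 1.87, 2.02 and 2.79 in node I and at 4.36, 5.21 and 5.50 in node II. CYCB2;2 was at 5.70, 4.80 and 4.18 in node I and at 5.92, 7.16 and 8.18 in node II. CDKB2;1, a kinase that partners the B-type cyclins, was at 6.78, 6.72 and 7.05 in node I and at 7.66, 7.78 and 9.21 in node II. In each the arrays of the nodes were apart, and the adjusted p of limma ran from 0.393 to 0.515. The exception of the list was CYCA1-4, an A-type cyclin, with -0.03 and a 95% interval of -0.37 to 0.32. D-type cyclins, which act earlier at the entry into the cycle, had 0 of 9 genes called and a median of 0.12. At an unadjusted p under 0.05 they had 0 of 9, against 4% of all genes higher and 5.47% lower. With 9 genes these zeros are near the shares of all genes.

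These dim genes moved with the treatment of low signals. With 16 added to each signal before the log, 3 of the 8 cyclin and CDK genes were called higher. These were CYCB2;1 at 2.40, CYCB1-1 at 2.23 and CYCB2;2 at 1.73. That setting called more probe sets higher in general, 72 of those tested (0.186%) against 28 (0.0724%) in the main fit. The list's mean level was 5.52, 5.86 and 5.96 on the node I arrays and 7.01, 7.58 and 8.14 on those of node II. The median difference was 1.26 without node II replicate 3 and 2.21 without node II replicate 1.

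**Figure D2:**
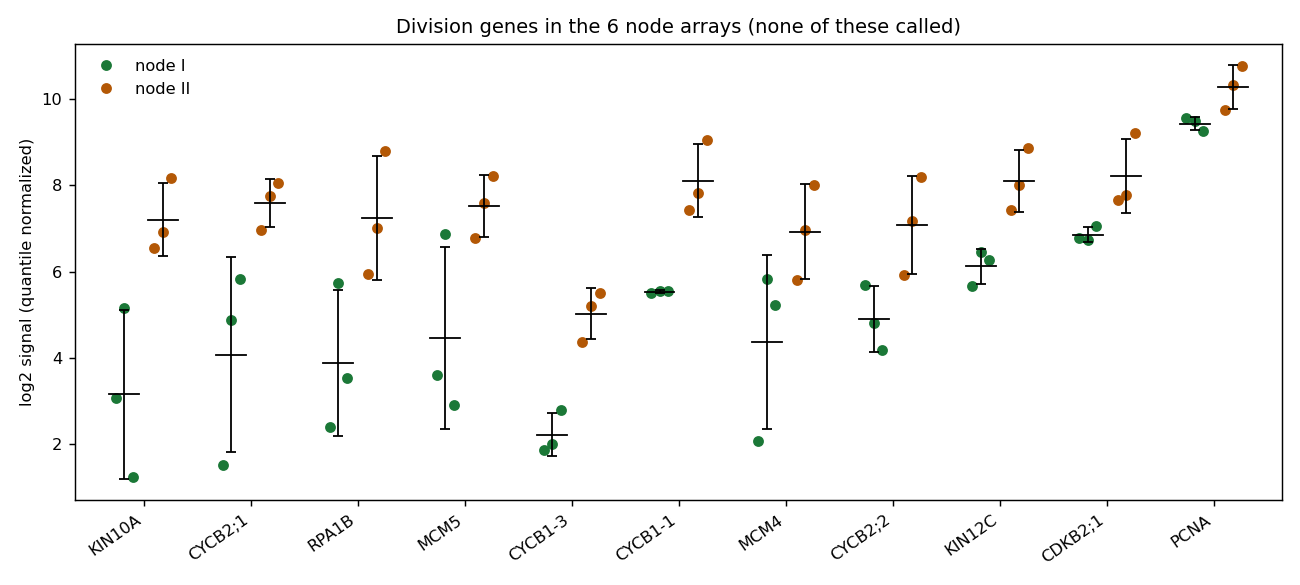
Log2 signal, quantile normalized, of 11 cyclin, CDK, replication and kinesin genes that were not called, in the 6 node arrays. Points are arrays (node I green, node II orange), horizontal lines are means and bars are SD (n = 3 per node). The mean of node II lies above that of node I in each, and MCM5 and MCM4 are the genes in which arrays of the nodes overlap.

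Of 28 replication genes, RPA2A was the 1 called, while 9 had an unadjusted p under 0.05 with node II higher (4% of all genes) and 0 with node II lower (5.47%). In 9 of the 28 the node II arrays were all above those of node I (12.1% of all genes), and in 0 all below (12%). RPA1B, a large subunit of replication protein A, was at 2.41, 5.73 and 3.53 in node I and at 5.95, 7.00 and 8.78 in node II (3.36 ± 0.96, limma adjusted p = 0.197). MCM5, a subunit of the helicase, was at 3.61, 6.86 and 2.92 in node I and at 6.77, 7.58 and 8.21 in node II (3.06 ± 0.89, limma adjusted p = 0.203). Node I replicate 2 was the array of MCM5 that overlapped node II, and without it the gene was called at 4.26. MCM4 was at 2.08, 5.82 and 5.22 in node I and at 5.80, 6.97 and 8.00 in node II, with 1 overlap.

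The list was not uniform. PCNA, the sliding clamp, was at 9.55, 9.48 and 9.25 in node I and at 9.74, 10.33 and 10.76 in node II, a difference of 0.85 ± 0.32. ORC5, a subunit of the origin complex, was at 5.15, 4.66 and 5.02 in node I and at 6.52, 6.76 and 6.44 in node II. By contrast the clamp loader gene RFC1 and the polymerase gene POLD1 differed by -0.04 and 0.04. In 17 of the 28 genes (60.7%) the 95% interval lay within a 2-fold difference either way, near the 63.2% of all genes. The median of the list was 0.26. With array medians set equal that median was 0.04.

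Of 33 kinesins, KIN14R was called, 9 had an unadjusted p under 0.05 with node II higher (4% of all genes) and 0 with node II lower (5.47%). The node II arrays were all above those of node I in 14 (12.1% of all genes) and all below in 2 (12%). KIN12C belongs to the kinesin-12 family, whose members in Arabidopsis act at the phragmoplast. It was at 5.67, 6.45 and 6.26 in node I and at 7.43, 8.00 and 8.86 in node II. Its difference of 1.97 ± 0.43 missed the threshold narrowly (limma adjusted p = 0.0507) and KIN12C was called under 7 of 17 alternatives. KIN10A was at 3.08, 5.15 and 1.24 in node I and at 6.54, 6.91 and 8.16 in node II, a difference of 4.05 ± 1.19 (limma adjusted p = 0.21). Of 11 tubulin genes 0 were called, 1 had an unadjusted p under 0.05 (4% of all genes), and in 8 the node II arrays were all above those of node I (12.1%). Their median was 0.38, and it was 0.10 with array medians set equal.

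The pattern of the division genes over the other organs varied by gene. CYCB2;1 averaged 7.59 in node II, 7.76 in the sheath base and 8.19 in the flower, against 4.08 in node I. KIN10A averaged 7.20 in node II, 6.57 in the sheath base and 7.14 in the flower, against 3.16 in node I. CYCB2;2 averaged 7.09 in node II and 7.62 in the sheath base but 5.11 in the flower. CYCB1-3 averaged 5.02 in node II and was highest at the base of internode I, at 7.04. Other division genes were low at that base: CYCB1-1 averaged 1.27, CYCB2;2 1.29, CDKB2;1 5.97, MCM4 0.97 and PCNA 6.42. Each of these was below its mean in node II. The sheath base had 2 arrays, and node II was not tested against these organs. The 5 markers fixed for dividing cells matched 6 probe sets. Their summed linear signal was 849 to 967 on the node I arrays and 1370 to 3450 on those of node II. It was 287 at the base of internode I, 688 to 840 in the flag blade, 1550 in the flower and 2320 in the sheath base. PCNA was the brightest of the 6 on every node array and so weighs most in the sum. None of the 6 was at the floor on every node array, and the part of dividing cells in the other differences was not tested.

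Of 11 genes of the photosynthetic apparatus, RCABP69 was called lower in node II and none higher. The antenna proteins bind chlorophyll and pass light energy to the photosystems, and PSAH is a subunit of photosystem I. RCABP69, a chlorophyll a/b-binding protein of the antenna, was at 11.77, 11.88 and 11.65 in node I and at 9.85, 10.54 and 11.14 in node II. The nodes did not overlap, and the difference was -1.26 ± 0.23 (2.39-fold; limma adjusted p = 0.018). The level of RCABP69 in both nodes was below that of every other organ, with node II the lowest. Its call was kept without node II replicate 3 and lost in the other 5 omissions (adjusted p = 0.0522 to 0.0689). Without node II replicate 1 the difference was -0.93. The called probe set is of a kind that may bind related transcripts, so it was absent from the fit without such probe sets.

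Among the others, PSAH was at 11.78, 11.93 and 11.46 in node I and at 9.97, 10.53 and 11.30 in node II (-1.12 ± 0.26, limma adjusted p = 0.0661). RCABP89, a further antenna protein, was at 12.84, 13.11 and 12.60 in node I and at 11.81, 12.09 and 12.61 in node II, with overlap by 1 pair of arrays (-0.68 ± 0.18, limma adjusted p = 0.136). CAB2R, also of the antenna, was at 14.80, 14.86 and 14.78 in node I and at 13.88, 14.47 and 14.71 in node II. In these genes node II replicate 1 was the lowest array and replicate 3 lay closest to node I. RCA, the activase of Rubisco, differed by -0.08 ± 0.25, and PSB28 of photosystem II by 0.34 ± 0.23.

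Of the 11 genes, 6 had an unadjusted p under 0.05 with node II lower, against 5.47% of all genes, and 6 had node II arrays all below those of node I, against 12%. The mean level of the list was 10.73, 10.95 and 10.81 on the node I arrays and 9.93, 10.36 and 10.74 on those of node II, so node II replicate 3 overlapped node I. The median difference was -0.46, and it was -0.32 without node II replicate 1. Genes of chlorophyll synthesis had 0 of 10 called and a median of -0.14.

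RIBA3 and GDCSH, from outside that list, were also called lower. RIBA3 encodes an enzyme of riboflavin synthesis, and was at 6.32, 6.77 and 6.01 in node I and at 4.91, 5.35 and 3.29 in node II (-1.85 ± 0.33, limma adjusted p = 0.0165). GDCSH, the H protein of glycine decarboxylase, which recovers carbon in photorespiration, was at 7.78, 8.14 and 7.65 in node I and at 6.44, 6.73 and 7.17 in node II (-1.08 ± 0.22, limma adjusted p = 0.0323). Both were separated by node, and in both node I ranked 10 and node II 11 of 11 groups. The RIBA3 call was lost without node I replicate 1 (adjusted p = 0.0567) or 2 (0.0595). Of the 6 omissions, the GDCSH call was kept in 1, without node II replicate 3, and lost in the other 5 (adjusted p = 0.0662 to 0.131). It was also lost on the deposited scale (-0.98), with the hybridization controls set equal (adjusted p = 0.0514), with 16 added (-0.97) and with no filter (0.0705). A second, dim probe set of GDCSH gave 1.26 ± 0.89. The called probe sets of RIBA3 and GDCSH are both of a kind that may bind related transcripts, so neither entered the fit without such probe sets.

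The green leaf markers fixed for this study were matched for 4 of 7. Their summed linear signal was 2700 to 3420 on the node I arrays and 2050 to 2710 on those of node II, against 62000 to 64000 in the flag blade and 59600 at the top of internode I. None was at the floor on every node array. The share of green tissue in either sample was not tested.

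The position of the called genes among all organs was uneven. Node II was the lowest of the 11 groups for 27 of the 48 probe sets called lower (56.2%), against 8.15% of all tested. Node I was the lowest for 8 of the 28 called higher (28.6%), against 7.01%. Being called makes a low rank of the lower node likelier, so these shares describe the calls and were not tested. Outside the nodes, the organ with the highest mean was the flag sheath base for 12 of the 28 called higher, against 11% of all tested. For the 48 called lower it was the panicle branch in 13 (8.73% of all tested), the flower in 11 (14.9%) and the top of internode I in 9 (8.06%).

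**Figure D3:**
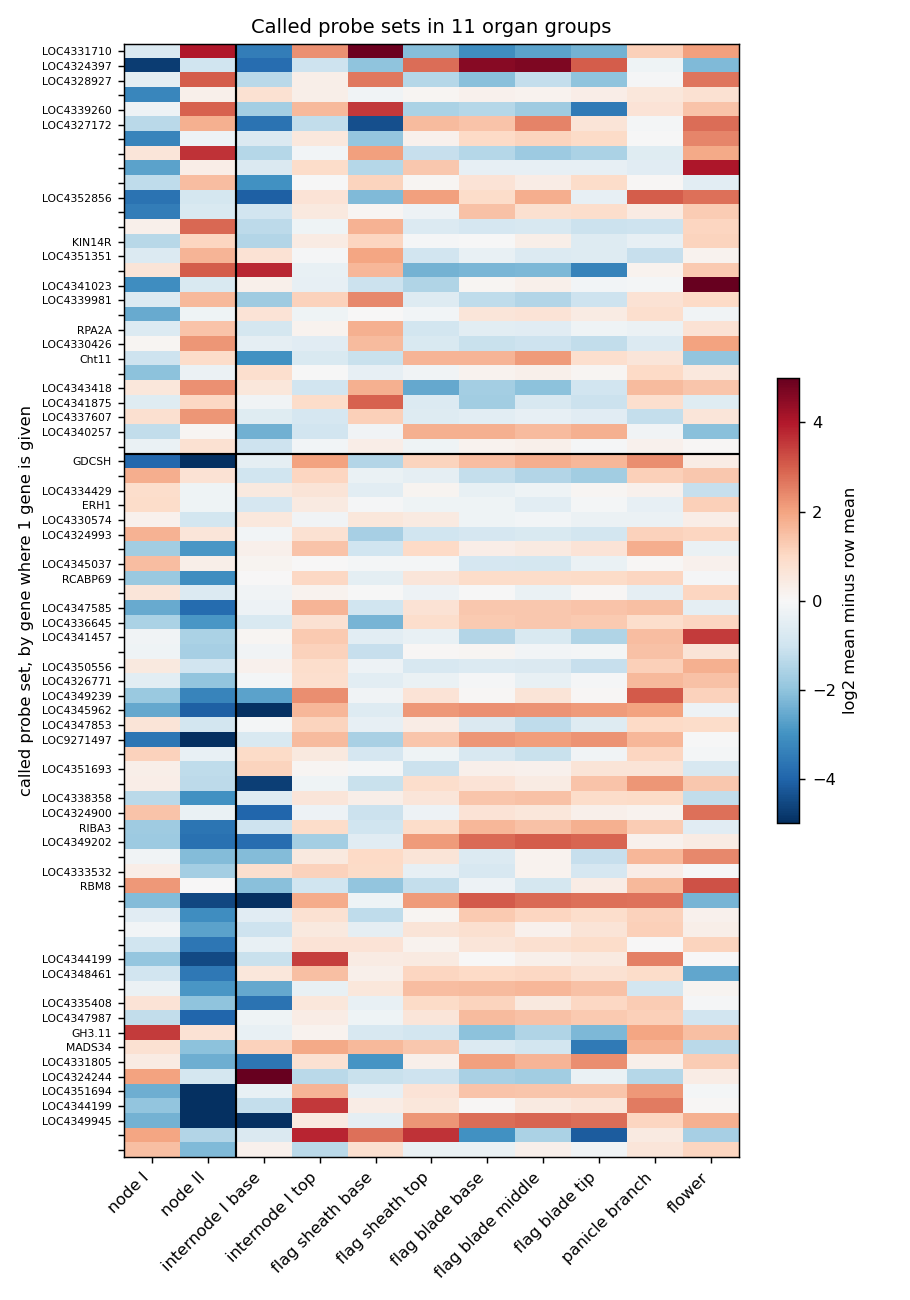
Mean log2 signal of the 76 called probe sets in 11 organ groups, less the mean of each row (colour scale from -5 to 5); rows run from the largest rise in node II at the top to the largest fall at the bottom, a horizontal line parts the 28 higher from the 48 lower, and rows without a label have no gene in the annotation. The nodes are the 2 columns left of the vertical line, and node II is the lowest of the 11 groups in 27 of the 48 lower rows.

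MADS34 had the largest fall of the 7 genes with a name. It is a SEPALLATA-like MADS-box gene that in rice shapes the panicle and gives spikelet meristems their identity. It was at 10.62, 10.31 and 10.36 in node I and at 7.13, 7.92 and 7.84 in node II. The nodes lay more than 2 log2 units apart at their nearest arrays, and the difference was -2.80 ± 0.49 (6.97-fold; limma adjusted p = 0.0159). MADS34 averaged 11.41 in the panicle branch, 11.58 at the top of internode I and 11.30 in the sheath base, so node I (10.43) was near the stem organs and node II (7.63) ranked 10 of 11, above the tip of the blade (6.16). The call was lost without node I replicate 1 (adjusted p = 0.0661) or 3 (0.0548).

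Among 27 MADS-box genes MADS34 was the 1 call, where 0.158% of all genes were called lower. A further 3 had an unadjusted p under 0.05 with node II higher and 3 with node II lower. With MADS34 counted, these were 11.1% higher and 14.8% lower, against 4% and 5.47% of all genes. The gene mads47, which restrains brassinosteroid responses in rice, was at 8.31, 8.20 and 8.94 in node I and at 10.59, 9.41 and 10.08 in node II (1.54 ± 0.45, limma adjusted p = 0.201). MADS16, the class B gene of petals and stamens, was at 10.22, 11.03 and 11.24 in node I and at 12.40, 11.79 and 11.51 in node II (1.07 ± 0.32, limma adjusted p = 0.238). MADS1, a floral SEPALLATA-like gene, was at 6.61, 6.09 and 8.00 in node I and at 5.85, 5.76 and 4.07 in node II (-1.67 ± 0.60, limma adjusted p = 0.359). The family thus held values on both sides of 0, and its median was -0.12. The 9 floral markers summed to 1200 to 1700 on the node I arrays and 933 to 1240 on those of node II, against 73700 in the flower, and none was at the floor on every node array.

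Hd3a, the florigen that moves from leaves to the shoot apex, was at 10.46, 10.83 and 10.62 in node I and at 7.62, 8.55 and 8.38 in node II. The nodes did not overlap, yet the difference of -2.45 ± 0.66 was not called (limma adjusted p = 0.15), and it was called at -2.39 with 16 added to the signals. Its mean was 12.65 at the top of internode I and 3.43 at its base. The other 15 flowering time genes lay between -0.65 and 1.07, with 0 called.

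GH3.11 had the next fall in size. GH3 enzymes join amino acids to auxin or jasmonate and so set how much of the free hormone remains. GH3.11 was at 11.15, 10.19 and 10.79 in node I and at 7.86, 8.81 and 7.12 in node II (-2.78 ± 0.54, 6.86-fold; limma adjusted p = 0.0266). Node I was the highest of the 11 groups, and the panicle branch followed at 9.19. The probe set is of a kind that may bind related transcripts. The call was lost without node I replicate 1 (adjusted p = 0.15) or 3 (0.102), without node II replicate 1 (0.0615) or 3 (0.121), and with the hybridization controls set equal (0.0699). The other 8 GH3 genes had 0 calls and differences of -0.26 to 1.05.

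RBM8, listed also as Y14B, is the RNA-binding protein of the exon junction complex that marks spliced messages. It was at 8.46, 8.31 and 8.98 in node I and at 6.31, 6.78 and 6.26 in node II (-2.13 ± 0.39, 4.38-fold; limma adjusted p = 0.0189). Node I was second to the flower (8.58 against 9.62). The RBM8 call was lost without node I replicate 1 (adjusted p = 0.0616) or 3 (0.103) and without node II replicate 3 (0.0584).

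ERH1, which in Arabidopsis encodes a sphingolipid enzyme that makes inositolphosphorylceramide, had the most even values of the named genes. It was at 9.88, 9.55 and 9.70 in node I and at 8.59, 8.57 and 8.60 in node II (-1.12 ± 0.18, 2.17-fold; limma adjusted p = 0.00907). A second probe set of ERH1 gave -0.84 ± 0.18 (limma adjusted p = 0.047), under the 2-fold limit. The call of the first was lost without node I replicate 1 (adjusted p = 0.0544) and with the hybridization controls set equal (0.111).

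Of 11 chitinase and PR genes, Cht11 was called higher in node II and none lower. Chitinases cut chitin, a polymer of fungal walls, and many are induced in defence. Cht11 was at 10.54, 9.84 and 9.57 in node I and at 12.40, 11.26 and 12.04 in node II (1.91 ± 0.40, 3.77-fold; limma adjusted p = 0.0454). Its nodes did not overlap, and blade and upper sheath had the highest levels (13.14 in the middle of the blade). The Cht11 call was kept without node II replicate 2 and lost in the other 5 omissions (adjusted p = 0.0544 to 0.182). It was also lost on the deposited scale (0.0619), with array medians equal (0.109), with the hybridization controls equal (0.0844), with no filter (0.0732) and without probe sets open to cross-hybridization (0.0512).

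The chitinase Cht1 was at 9.14, 8.83 and 9.52 in node I and at 10.82, 11.15 and 10.75 in node II (1.74 ± 0.44, limma adjusted p = 0.112). Cht10 was at 8.04, 7.81 and 8.01 in node I and at 8.55, 8.94 and 9.19 in node II (0.94 ± 0.31, limma adjusted p = 0.271). Both were separated by node without a call. Across the list 6 of 11 genes had node II arrays all above those of node I (12.1% of all genes) and 0 all below (12%), and the median was 0.94. WRKY76, a WRKY factor of the blast response in rice, was at 9.66, 10.17 and 8.39 in node I and at 11.68, 11.60 and 12.01 in node II (2.36 ± 0.75, limma adjusted p = 0.26). Of 6 WRKY genes 0 were called.

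Heat shock factor HSF10 came nearest to a call in its list. It was at 7.00, 6.66 and 6.67 in node I and at 8.25, 8.14 and 7.81 in node II (1.29 ± 0.30, limma adjusted p = 0.0801), and it was called at 1.43 on the deposited scale. The list of 43 heat shock proteins and factors had 0 calls and a median of -0.20.

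**Figure D4:**
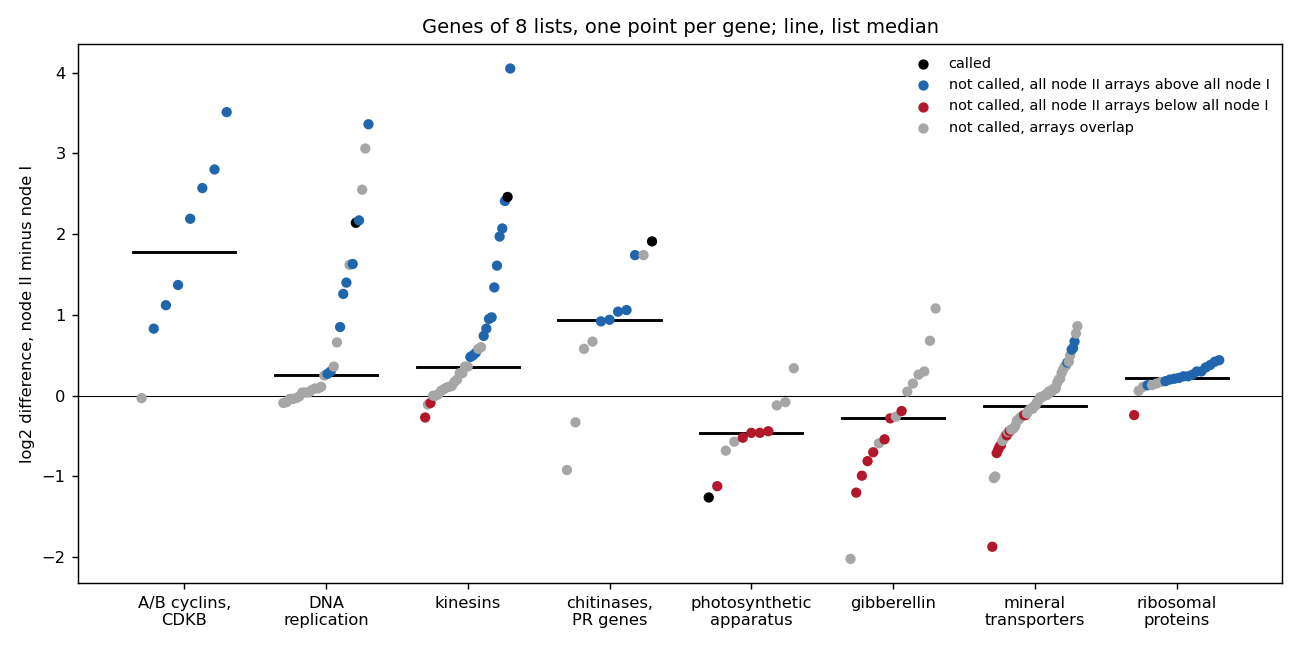
Log2 difference (node II minus node I) of each measured gene in 8 lists, 1 point per gene, with the list median as a line. Black points were called, blue and red points were not called but had all node II arrays above or below all node I arrays, and grey points had overlapping arrays. The cyclins and chitinases lie mostly above 0 (medians 1.78 and 0.94), the photosynthetic genes mostly below (-0.46), and ribosomal protein genes close to 0 (0.22).

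The list of mineral element transporters, drawn by symbol and not by a known role in nodes, gave 0 calls among 60 genes. Of all genes 0.0995% were called higher and 0.158% lower, so 0 calls in a list of this size is near that share. At an unadjusted p under 0.05, 1 of the 60 was higher (1.67%, against 4% of all genes) and 5 were lower in node II (8.33%, against 5.47%). The median was -0.13, with -0.06 on the deposited scale and -0.30 with array medians set equal. In 26 of the 60 the 95% interval lay within a 2-fold difference either way, against 63.2% of all genes, so a smaller share of this list was bounded that closely. NRAMP3, a manganese transporter of rice nodes, was at 13.96, 13.33 and 14.04 in node I and at 13.48, 12.70 and 12.09 in node II (-1.02 ± 0.33, limma adjusted p = 0.265). NRAMP2, of the same family, was at 12.62, 12.27 and 12.81 in node I and at 12.04, 11.95 and 11.70 in node II (-0.67 ± 0.19, limma adjusted p = 0.195). The arrays of NRAMP2 were separated by node and those of NRAMP3 overlapped.

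Of the node markers, LSI6 differed by -0.19 with a 95% interval of -0.98 to 0.59, which lies within a 2-fold difference. LSI2 differed by -0.13 with an interval of -2.06 to 1.79, which still holds differences of more than 2-fold either way. The interval was -1.52 to 0.53 for HMA2, an ATPase that loads zinc and cadmium, and -1.72 to 0.29 for the zinc transporter ZIP3. It was -0.31 to 1.04 for YSL16, a carrier of copper bound to nicotianamine, and -1.69 to 0.64 for the sodium transporter HKT1;5. VIT2, a vacuolar iron transporter, was at 13.91, 13.65 and 13.69 in node I and at 13.13, 13.04 and 13.26 in node II, with an interval of -2.09 to 0.86. Its arrays were separated although the interval, whose spread is shared with the other organs, spans 0.

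**Figure D5:**
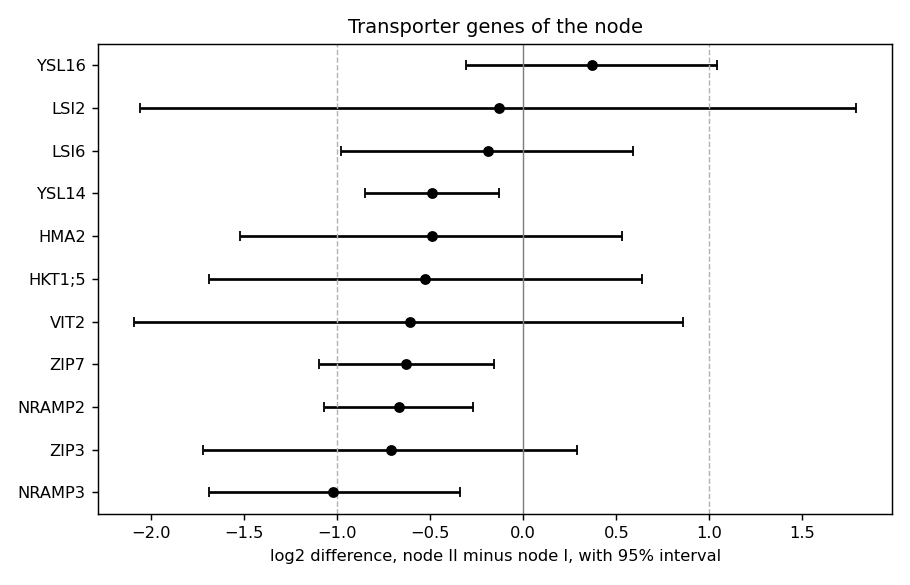
Log2 difference (node II minus node I) with its 95% interval for the 7 matched node markers and the 4 mineral transporters of smallest p (11 genes). Dashed lines mark a 2-fold difference either way; LSI6 and YSL14 are the genes whose interval stays between them.

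Other transport genes gave 0 calls too. SUT1, a sucrose transporter of the phloem, was at 12.77, 11.88 and 12.78 in node I and at 11.72, 11.57 and 11.10 in node II (-1.02 ± 0.36, limma adjusted p = 0.337). SWEET1A, of the SWEET sugar transporters, was at 9.74, 10.19 and 10.04 in node I and at 10.83, 10.74 and 11.09 in node II (0.89 ± 0.22, limma adjusted p = 0.108). Both genes had separated arrays, in opposite directions. NAR2.2, a partner protein of nitrate transporters, was at 8.67, 8.13 and 8.33 in node I and at 6.83, 3.04 and 6.38 in node II (-2.96 ± 0.90, limma adjusted p = 0.238). The potassium transporter gene HAK11 differed by -0.90 ± 0.28 and the vacuolar potassium channel gene TPKA by -0.57 ± 0.15, each with separated arrays.

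CIPK24, the kinase of the salt overly sensitive pathway, was at 13.88, 13.59 and 14.09 in node I and at 13.14, 13.04 and 12.44 in node II (-0.98 ± 0.24, limma adjusted p = 0.0947). Among gibberellin genes 0 of 16 were called, and 2 had an unadjusted p under 0.05 with node II lower (5.47% of all genes). In 7 the node II arrays were all below those of node I (12% of all genes) and in 0 all above (12.1%). GAMYB, a MYB factor that acts in gibberellin responses, was at 9.82, 9.25 and 9.89 in node I and at 9.10, 8.82 and 8.95 in node II (-0.70 ± 0.20, limma adjusted p = 0.205). CPS1, the first enzyme of gibberellin synthesis, was at 12.56, 12.67 and 13.06 in node I and at 11.63, 12.15 and 12.08 in node II (-0.81 ± 0.43, limma adjusted p = 0.631). The median of the list was -0.27, and it was -0.51 with array medians set equal.

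Genes of the cell wall and of growth showed no called member. CSLD5, a cellulose synthase-like gene, was at 5.06, 3.39 and 5.49 in node I and at 1.55, 1.87 and 1.68 in node II (-2.95 ± 0.73, limma adjusted p = 0.104). The laccase gene LAC10 was at 10.06, 11.33 and 10.07 in node I and at 9.24, 8.60 and 9.44 in node II (-1.39 ± 0.50, limma adjusted p = 0.359). The secondary wall cellulose synthases CESA4, CESA7 and CESA9 differed by -0.50, -0.45 and -0.50 with overlapping arrays. LOGL9, of the LOG family that activates cytokinin, was at 9.19, 10.15 and 9.79 in node I and at 8.30, 8.86 and 8.42 in node II (-1.18 ± 0.44, limma adjusted p = 0.383).

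Over the 39 lists, 33 held no called gene and 6 held 1 each. Those 6 are the lists of replication, kinesin, photosynthesis, MADS-box, GH3 and chitinase genes described above. For comparison, 17 of 17094 genes were called higher (0.0995%) and 27 lower (0.158%) at 1 probe set per gene. In the cytosolic ribosomal proteins the 95% interval lay within a 2-fold difference in 20 of 20. In 14 of the 20 the node II arrays were all above those of node I (12.1% of all genes), and in 1 all below (12%). Their median was 0.22, which became -0.04 with array medians set equal.

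The largest calls that named a gene fell on genes known here by locus identifier alone, and no role is given for them. LOC4331710 was at 3.41, 5.85 and 3.30 in node I and at 7.31, 9.78 and 9.69 in node II, a difference of 4.74 ± 0.95 (limma adjusted p = 0.0316). Its node I signal was dim, and with 16 added to the signals the difference was 3.78. LOC4328927 was at 6.12, 6.22 and 5.77 in node I and at 8.54, 9.74 and 10.41 in node II (3.52 ± 0.41, 11.51-fold; limma adjusted p = 0.000592). The latter had the smallest adjusted p of the comparison and was called in all 6 omissions. Its probe set is of a kind that may bind related transcripts. LOC4331710 was lost without node I replicate 1 or 3 and without node II replicate 2 or 3 (adjusted p = 0.114 to 0.162), and with no filter (0.0528). Between LOC4331710 and LOC4328927 in size was LOC4324397 (3.73 ± 0.80, limma adjusted p = 0.047). LOC4324397 was at 0.11, 4.76 and 2.86 in node I and at 6.90, 6.14 and 5.88 in node II. It was called in 1 of the 6 omissions, differed by 1.89 with 16 added, and averaged 11.98 in the middle of the flag blade.

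LOC4327172 was at 8.60, 8.23 and 8.09 in node I and at 11.40, 10.99 and 11.89 in node II (3.12 ± 0.51, limma adjusted p = 0.00907), and it was called in all 6 omissions. Its mean was 5.24 in the sheath base, unlike LOC4331710 (9.80) and LOC4328927 (9.15), which were high there. In both LOC4331710 and LOC4328927 node II stood far above the blade, where their means were 1.82 to 5.35.

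Among the falls, LOC4349945 was at 5.70, 6.00 and 5.54 in node I and at 4.35, 1.30 and 1.56 in node II (-3.34 ± 0.48, limma adjusted p = 0.00632), and was called in all 6 omissions. Its node II signal was dim, and with 16 added to the signals the difference was -1.58. LOC4344199 was called at both of its probe sets, by -3.11 ± 0.56 and -2.60 ± 0.53. The first was at 8.42, 8.23 and 9.14 in node I and at 6.51, 5.01 and 4.94 in node II. Its means of 8.60 and 5.49 were the lowest of the 11 groups, and the top of internode I had 14.10. The first was lost without node I replicate 1 (adjusted p = 0.0544) or 3 (0.093) and without node II replicate 2 (0.0853) or 3 (0.0583), and the second was called in 0 of the 6 omissions and lost with no filter.

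LOC4351693 and LOC4351694 lie next to each other in the gene annotation with no protein-coding gene between them, and both were called lower. LOC4351693 was at 14.31, 14.52 and 14.36 in node I and at 12.75, 13.03 and 12.71 in node II (-1.57 ± 0.32, limma adjusted p = 0.0407). LOC4351694 was at 7.10, 7.20 and 6.93 in node I and at 2.98, 5.83 and 3.58 in node II (-2.95 ± 0.47, limma adjusted p = 0.00892). The pair did not hold equally: LOC4351693 was lost in each of the 6 omissions (adjusted p = 0.0874 to 0.122) and LOC4351694 in none. The brightest probe set of LOC4351694 gave -1.03 ± 0.23 and was not called (limma adjusted p = 0.0592), and a dim one gave 1.25 ± 1.02. The called probe set is of a kind that may bind related transcripts, and its difference was -2.05 with 16 added to the signals.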

How the data were processed

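The deposited intensities of 35 arrays are linear signals, made by software not given in the sources used here. Their trimmed mean, taken without the lowest and highest signals, was 500.06 to 500.08 on every array. The deposited scale is therefore one on which the arrays had already been set to a common mean. Values were floored at 1, taken to log2 and quantile normalized across the series. Control probe sets (123) were dropped, and those reaching the overall median (5.83) on 3 or more of 32 replicated arrays entered the tests. limma 3.58.1 in R 4.3.3 fitted 1 mean per group for 11 groups (21 residual degrees of freedom), after a test on simulated data. Genes came from the platform annotation, with symbols updated from RefSeq: 20920 tested probe sets had 1 gene, 85 several and 17668 none. The gene build is not named, so no coordinates are given. The 39 lists rest on symbols, less 24 mismatched entries, and members and lists were chosen with earlier results of these data known. Genes named were drawn from called ones (up to 15 per direction by size), the 4 of smallest p per list, and node markers. Not all of the largest called genes are described, and other list members are given where a sentence on their list needed them. LOC4351693, outside the 15 largest falls, is given as the neighbour of LOC4351694. LSI3 and SPDT, which had no symbol match, are not analysed here. With 3 arrays per node, the number of arrays limits precision: the median 95% interval reached 0.75 log2 either way. Sequences were not used here.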

Additional observations from a re-analysis of the deposited data

How the results depend on the processing

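The count of probe sets higher in node II (28) became 49 on the deposited scale, 72 with log2(signal + 16), 18 with no filter, 17 without probe sets open to cross-hybridization, 44 with the trend of limma and 0 with the 6 node arrays alone. The count lower (48) became 96 with array medians equal, 31 with hybridization controls equal, 73 with log2(signal + 16), 31 with no filter, 27 without probe sets open to cross-hybridization and 0 with the 6 node arrays alone. In the fit of 6 arrays, 2109 higher and 2233 lower had an unadjusted p under 0.05. Leaving out 1 array gave 10 to 51 higher, lowest without node II replicate 2 and highest without node II replicate 1, and 13 to 67 lower, lowest without node I replicate 1 and highest without node II replicate 3. Deviations from the node means correlated at r = 0.02047, 0.05991 and -0.04874 between same-numbered arrays of the nodes. Between arrays of unlike number they correlated at r = -0.107 to 0.0894. The labels do not say whether same-numbered arrays share plants, and 3 arrays per node cannot settle it. With the replicate block there were 37 higher and 47 lower over all replicated arrays, and 0 and 0 in the 6 node arrays alone, where 1877 and 1807 had an unadjusted p under 0.05. The causes of these shifts were not tested, apart from fewer arrays or other sets of probe sets by construction.

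Of 64 genes followed under these settings, 18 were called. None of the 18 changed direction. With 1 array left out, RCA ranged from -0.42 to 0.19, reversed without node I replicate 2 (0.03) or node II replicate 1. LSI2 ranged from -0.55 to 0.30, reversed without node I replicate 3 (0.29) or node II replicate 3. Signals near the floor limit the dim genes, whose differences shrank with 16 added.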
